A study of Arvicanthis niloticus with 7 samples.

Results

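Major urinary proteins (MUPs) were followed through the 8 probes of the array whose mouse gene symbol begins with Mup and a number, out of 25697 probes in all, of which 23141 carried a symbol. The 8 probes stood for 5 genes: *Mup2* with 2 probes (Entrez gene 17841), *Mup5* with 3 probes (17844), and *Mup6* (620807), *Mup20* (381530) and *Mup21* (381531) with 1 probe each. Because the family was selected on the higher *Mup2* and *Mup6* signals of the palm fruit juice (PFJ) arrays, that contrast is given here as a description, and no p-value of it is offered as support for any *Mup* probe. MUPs are small barrel-shaped proteins of the lipocalin family, which the rodent liver secretes into the blood and the kidney passes into the urine, where they carry volatile pheromones and act as scent signals themselves. In mouse they are among the abundant transcripts of the adult male liver, and their hepatic transcription depends on growth hormone together with thyroid hormone, glucocorticoids and androgens. The mouse genes lie in 1 cluster, in which some but not all are near-identical copies of each other. A probe named for one gene may thus also bind transcripts of another, and the gene behind each signal is uncertain.

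The RNA was labelled as liver from male Nile rats (NRs, *Arvicanthis niloticus*), grass rats that become diabetic on diets rich in carbohydrate. All animals started at 3 weeks of age and spent 4 weeks on a diet in which carbohydrate supplied 70% of the energy. The control group (4 arrays) received this diet alone, and in the PFJ group (3 arrays) it was mixed with PFJ, a phenolic extract of oil palm fruit, to 5.4 g per kg diet, counted as gallic acid equivalents. The methods state that RNA of the highest integrity was taken within each group and that outlying samples were removed, and the labels do not name the animal behind an array, so that spreads and p-values refer to these samples. The probes were designed on mouse transcripts, and a NR transcript that differs under a probe can give little or no signal. None of the 5 *Mup* symbols was matched in the NR RefSeq gene table (assembly mArvNil1.pat.X), in which 3354 of the 3734 genes tested (89.8%) were.

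Signal was scarce on all arrays, with 4689 to 5137 probes (18.25% to 19.99%) detected at a p below 0.01 against the negative controls of the array. Control replicates 3 and 4 stood apart, correlating across the tested genes at r = 0.986 with each other and at 0.759 to 0.778 with the other 5 arrays, which correlated among themselves at 0.955 to 0.979. For 19 genes of secreted hepatocyte proteins the median log2 value fell at 7.92 and 8.36 there, compared with 13.79 to 14.46 on the other 5. Of 26 probes for kidney genes, 13 and 12 were detected on them and 4 on each of the others. Values are therefore given with and without these 2 arrays. At an adjusted p below 0.05 from limma, 0 of 3734 genes (0%) differed between the groups on all 7 arrays, and at an unadjusted p below 0.05, 81 genes (2.17%) were higher and 97 (2.6%) lower with PFJ.

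*Mup2* gave the brightest *Mup* signals, and it gave them on the PFJ arrays. The raw signal of its probe 5570435 was 156.9, 204.5, 166 and 142.2 on control replicates 1 to 4, against background levels of 135.1, 139, 150.6 and 132.7 on the same arrays. It was 1554, 4049.4 and 5521.6 on PFJ replicates 1, 2 and 3, which is 11.44, 29.33 and 38.7 times the background of those arrays. Every PFJ array lay far above every control array. The detection p was 0 on all PFJ arrays, and among the controls it was 0.00752 on replicate 2, where the probe was detected, and 0.127, 0.195 and 0.257 on replicates 1, 3 and 4. After background correction and quantile normalisation the log2 values were 5.34, 6.49, 5.15 and 5.06 in the control group and 10.51, 11.89 and 12.76 in the PFJ group. The means were 5.51 ± 0.66 (SD, n = 4) and 11.72 ± 1.13 (SD, n = 3), a difference of 6.21, and 4.02 log2 units separated the lowest PFJ value from the highest control value. In such tissue RNA, fewer cells of a type and less RNA per cell cannot be told apart.

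The other *Mup2* probe, 7050706, was dimmer and showed the same separation. Its raw signal was 126.9, 132.2, 142.8 and 124 on control replicates 1 to 4, below the background level of each array, with detection p-values of 0.665 to 0.762. On PFJ replicates 1, 2 and 3 it was 214.1, 405.3 and 668.4, with detection p-values of 0.00501, 0 and 0. The first of these PFJ signals, at 1.58 times background, lay close to the limit of detection. The log2 values were 4.75 to 4.80 in the control group, with a mean of 4.78 ± 0.02 (SD, n = 4), and 6.60, 8.19 and 9.53 in the PFJ group, with a mean of 8.11 ± 1.47 (SD, n = 3). Because no control array detected this probe, the control group has only an upper limit. Setting each control array to its lowest detected value made the PFJ mean at least 3.425-fold higher, and at least 3.349-fold higher against control replicates 1 and 2 alone.

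*Mup6*, another gene of the mouse cluster, was detected on every PFJ array but on none of the control arrays. The raw signal of its probe 1850730 was 143.6, 156.1, 168.3 and 159.7 on control replicates 1 to 4, with detection p-values of 0.287, 0.163, 0.16 and 0.0764. On PFJ replicates 1, 2 and 3 it was 651.7, 1648.5 and 2777.2, or 4.8, 11.94 and 19.47 times background, with a detection p of 0 on each. The groups did not overlap. The log2 values were 5.06, 5.25, 5.19 and 5.43 in the control group and 9.15, 10.53 and 11.71 in the PFJ group, with means of 5.23 ± 0.15 (SD, n = 4) and 10.46 ± 1.28 (SD, n = 3). The PFJ mean was at least 17.55-fold higher than the limit for the control group, and 3.72 log2 units separated the lowest PFJ value from the highest control value.

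**Figure D1:**
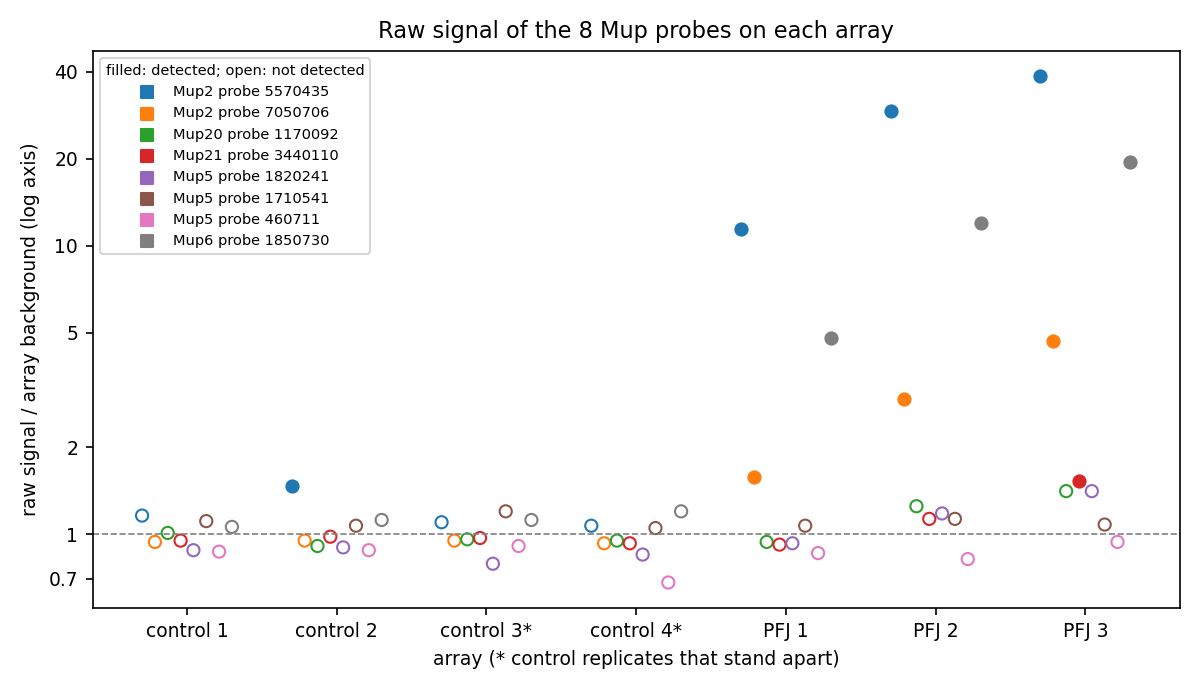
Raw signal of each of the 8 *Mup* probes divided by the background level of the array (vertical log axis) on each of the 7 arrays, filled where the probe was detected and open where it was not, with control replicates 3 and 4 starred. The 3 probes of *Mup2* and *Mup6* leave the background line on the PFJ arrays, up to 38.7 times background, whereas no *Mup* probe exceeds 1.47 times background on a control array.

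The control values of *Mup2* and *Mup6* were at or near background on control replicates 1 and 2 as well as on replicates 3 and 4. On replicates 1 and 2 the genes of secreted hepatocyte proteins had medians of 14.23 and 14.15. For *Mup2* probe 5570435 the PFJ mean exceeded that of control replicates 1 and 2 by 5.81 and that of replicates 3 and 4 by 6.61 log2 units. *Mup6* was detected on no control array, its raw signals there being 1.06 to 1.2 times background. Its PFJ mean was at least 17.16-fold higher than the limit for control replicates 1 and 2 alone.

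**Figure D2:**
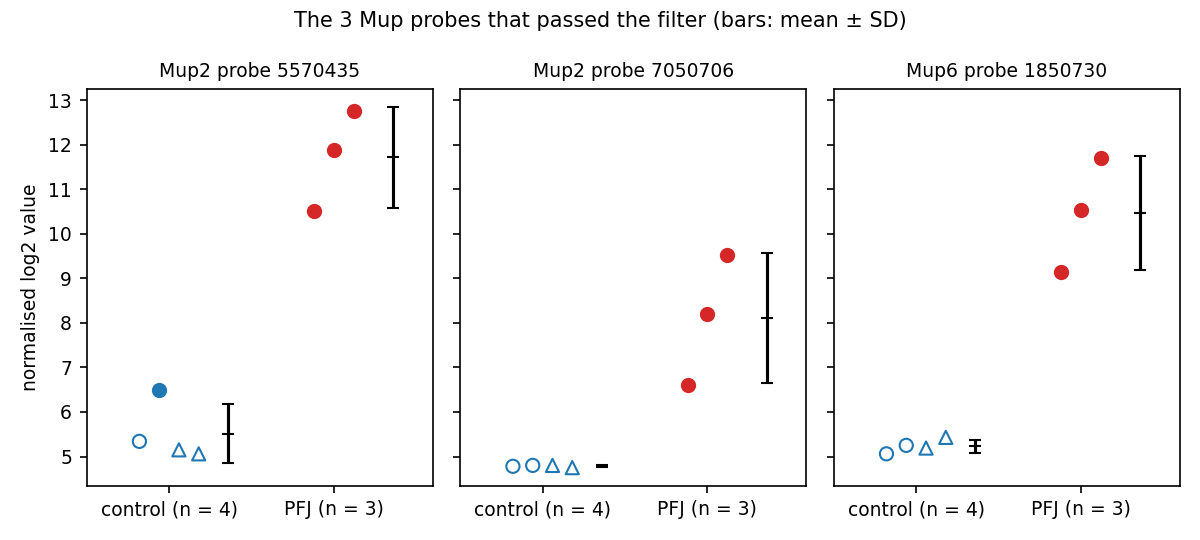
Normalised log2 values of the 3 *Mup* probes that passed the detection filter, 1 point per array in the control group (n = 4) and the PFJ group (n = 3), with bars for mean ± SD. Open symbols are arrays on which the probe was not detected and triangles are control replicates 3 and 4, which lie at 4.75 to 5.43, with control replicates 1 and 2 at 4.78 to 6.49.

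The remaining 5 probes did not pass the filter, which asked for detection on 3 or more of the 7 arrays, and they stayed near background throughout. *Mup20* encodes darcin, the male mouse pheromone that attracts females, and its probe 1170092 was detected on no array. Its raw signal was 126.7 to 144.8 on the control arrays and 127.9, 173.2 and 200.8 on PFJ replicates 1, 2 and 3. The detection p of 0.0138 on PFJ replicate 3 fell just outside the limit of 0.01. *Mup21* probe 3440110 was detected on 1 array, PFJ replicate 3, where its p of 0.00376 fell just inside. Its raw signal was 123.7 to 145.5 on the control arrays and 124.3, 156.7 and 218.7 on PFJ replicates 1, 2 and 3. For both genes PFJ replicate 1 lay among the control arrays, so the groups overlapped.

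*Mup5*, which in mouse is known from salivary gland, was detected by none of its 3 probes. Probe 1820241 gave raw signals of 113.1 to 125 on the control arrays and 126.2, 162.4 and 200.9 on PFJ replicates 1, 2 and 3, with detection p-values on the latter of 0.736, 0.105 and 0.0125. Its groups did not overlap, although by 0.05 log2 units, with means of 5.52 ± 0.84 (SD, n = 3) and 4.64 ± 0.07 (SD, n = 4). Probe 1710541 lay at 5.14 ± 0.09 (SD, n = 3) in the PFJ group and 5.17 ± 0.17 (SD, n = 4) in the control group. Probe 460711 lay at 4.67 ± 0.10 (SD, n = 3) and 4.63 ± 0.13 (SD, n = 4). These latter probes, named for the same gene as the first, showed no separation of the groups. Over the whole family, 4 of the 8 probes had every PFJ array above every control array. Both tested genes, *Mup2* and *Mup6*, were among the 129 of 3734 genes (3.45%) with that property, which the choice of the family had fixed. That share is over genes that passed the filter. Of the 4 probes, *Mup5* probe 1820241 did not pass it and *Mup2* probe 7050706 did not stand for its gene. The share over all probes of the array was not counted.

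The PFJ arrays also differed among themselves, always in one order for the brighter probes. In 6 of the 8 *Mup* probes the signal was lowest on PFJ replicate 1 and highest on PFJ replicate 3, an order found in 558 of the 3734 tested genes (14.9%). That share is over genes that passed the detection filter, whereas the *Mup20*, *Mup21* and *Mup5* probes among the 6 did not pass it. From PFJ replicate 1 to replicate 3 the log2 values differed by 2.24 and 2.93 for the *Mup2* probes and by 2.56 for *Mup6*. The faint probes of *Mup20*, *Mup21* and *Mup5* (1820241) differed by 1.64, 2.09 and 1.67, and the other *Mup5* probes by 0.03 and 0.12. In raw signal after subtraction of the background, PFJ replicates 2 and 3 were 2.758 and 3.793 times PFJ replicate 1 for *Mup2* probe 5570435. The same ratios were 3.414 and 6.716 for probe 7050706 and 2.928 and 5.107 for *Mup6*. The spread of the *Mup* signal within the PFJ group was thus severalfold, with replicate 1 the dimmest array in each case.

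Most genes did not differ to this extent between those 2 arrays. The central 95% of the tested genes lay between -1.21 and 1.03 log2 units for PFJ replicate 3 minus replicate 1, around a median of 0. Falls of a like size were not counted, and 26 genes were higher on replicate 3 by more than 1.5. *Mup6* ranked first and *Mup2* seventh among these. The list also held *Ttr* (2.53), the transthyretin that carries thyroid hormone and retinol-binding protein, *Apoa1* (2.52), the main protein of high-density lipoprotein, and *Serpina1b* and *Serpina1d* (2.28 and 2.17), which encode mouse α1-antitrypsins. It further held *Igfbp5* (2.50), *Cyp2a5* (2.38), *Aak1* (2.18) and *Lpl* (2.02), which were not among the probes detected with PFJ alone. The 11 genes of secreted hepatocyte proteins that were detected on all 7 arrays differed by -0.67 to 0.14. Their mean log2 values in the PFJ group were 13.59 to 16.1, at the bright end of arrays whose brightest raw signals were 69781 to 71500, and whether differences are compressed there was not tested.

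**Figure D3:**
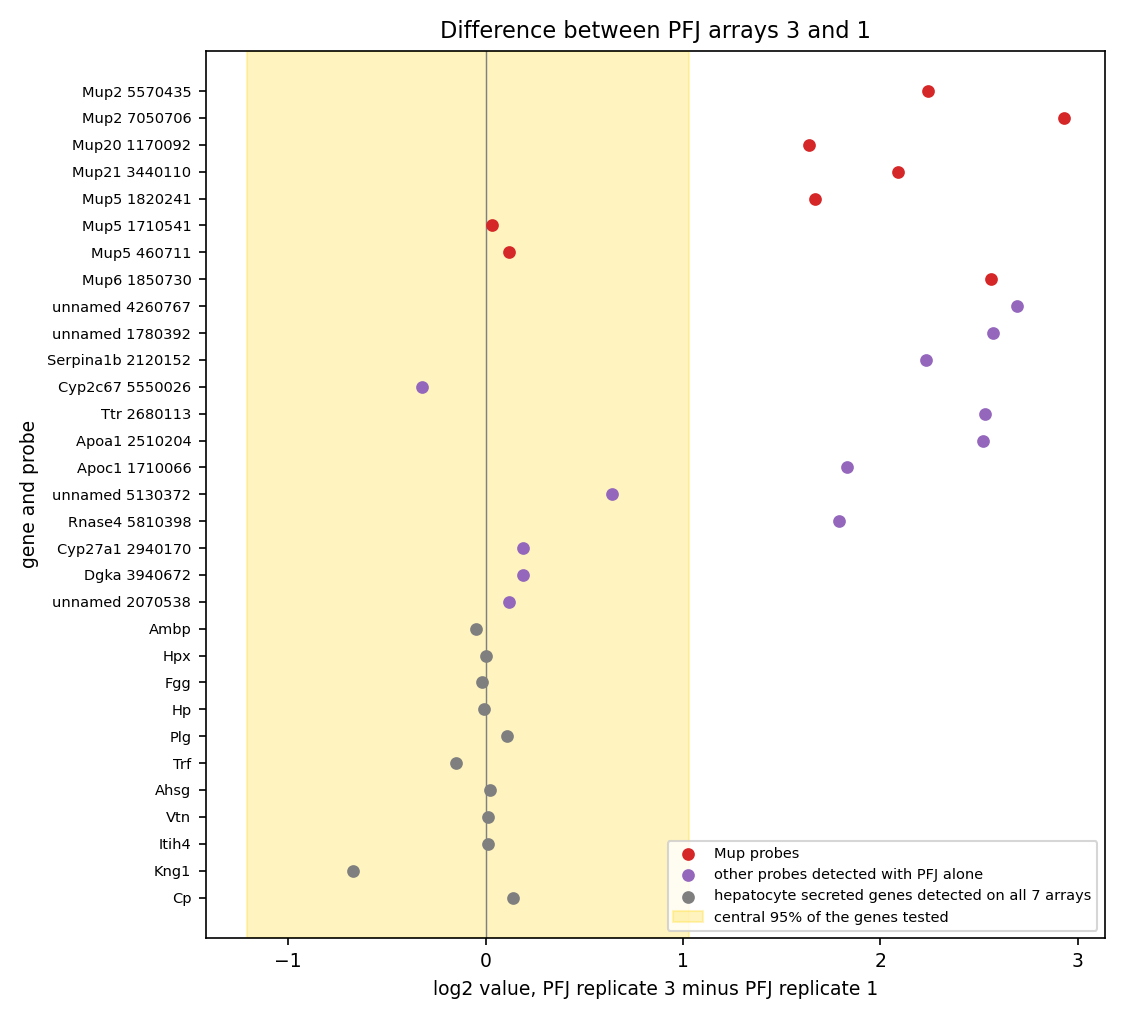
Difference in log2 value between PFJ replicates 3 and 1 (horizontal axis) for the 8 *Mup* probes, the other 12 probes detected with PFJ alone, and 11 genes of secreted hepatocyte proteins detected on all 7 arrays. The shaded band holds the central 95% of the tested genes, -1.21 to 1.03, and 6 *Mup* probes lie beyond it. Of these, only *Mup2* probe 5570435 and the *Mup6* probe stand for tested genes.

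Detection on all 3 PFJ arrays without detection on any control array was rare, being found for 14 of 25697 probes (0.0545%), and 2 of these were *Mup* probes (*Mup6* and *Mup2* probe 7050706). The reverse pattern, detection on all 4 control arrays without detection on any PFJ array, was found for 13 probes. Of the 14 probes, 10 carried a gene symbol and 9 had the order of PFJ arrays seen for *Mup2*, an order found in 14.9% of the tested genes. Besides the *Mup* probes, these 9 were for *Serpina1b*, *Ttr*, *Apoa1*, *Apoc1*, an apolipoprotein of triglyceride-rich and high-density lipoproteins, *Rnase4*, a secreted ribonuclease, and 2 probes without a symbol here (4260767 and 1780392). The log2 values of *Apoa1* were 4.84 to 5.02 on the control arrays and 6.67, 7.73 and 9.20 on PFJ replicates 1, 2 and 3. Those of *Ttr* were 4.89 to 5.42 on the control arrays and 6.93, 7.70 and 9.46 on the PFJ arrays. Both were lowest on PFJ replicate 1 and highest on replicate 3, which their choice from these 9 probes had fixed.

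In the PFJ group these companions were at least 4.492-fold (*Serpina1b* probe 2120152), 3.245-fold (*Ttr*), 2.903-fold (*Apoa1*), 2.289-fold (*Apoc1*) and 1.731-fold (*Rnase4*) above the limit of the control group. For the probes without a symbol the folds were at least 18.68 (4260767) and 6.673 (1780392). The named probes with another order of PFJ arrays were those of *Cyp2c67*, at least 3.378-fold, *Cyp27a1*, a mitochondrial enzyme of bile acid synthesis, at least 1.317-fold, and *Dgka*, a diacylglycerol kinase, at least 1.127-fold. All 14 probes were picked on the same contrast as the *Mup* genes, and no test is given for them. Of the 10 symbols, 6 were matched in the NR gene table, the *Mup* symbols not among them.

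Other probes of the companion genes, looked at after their values were seen, behaved in part alike. The second *Apoc1* probe, 5820600, gave log2 values of 5.62, 6.71 and 7.59 on PFJ replicates 1, 2 and 3 and 4.79 to 5.09 on the control arrays. The second *Rnase4* probe, 5550369, gave 5.11, 6.00 and 7.44 on the PFJ arrays and 4.97 to 5.42 on the control arrays, so PFJ replicate 1 lay among the controls, and it was detected on 1 array. *Serpina1b* probe 1430253 gave 7.55, 8.90 and 9.83 on the PFJ arrays and 6.97, 7.39, 4.90 and 4.96 on control replicates 1 to 4, so it was detected on control replicates 1 and 2. The probe of *Serpina1e* gave 5.13, 4.81 and 5.41 on the PFJ arrays and did not share the order. The probes of *Alb* (albumin) and *Fabp1* (liver fatty acid-binding protein), genes among the most abundant of mouse liver, were detected on no array, with log2 values of 4.78 to 5.03 and 4.72 to 5.07.

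The 10 tested genes whose log2 values ran most like those of *Mup2* were ranked by the smaller of Pearson's r over the 7 arrays and over the 5 arrays without control replicates 3 and 4. *Mup6* came first, with r = 0.987 and 0.993. *Apoc1* (0.974 and 0.974), *Apoa1* (0.958 and 0.959), *Selenom* (0.962 and 0.954), *Serpina1d* (0.954 and 0.95), *Rpl36al* (0.942 and 0.95), *Ttr* (0.946 and 0.933), *Rps3* (0.933 and 0.942), *Rnase4* (0.938 and 0.932) and *Ddx50* (0.927 and 0.919) followed. These coefficients describe 7 or 5 arrays that share 1 platform and 1 normalisation, and the separation of 2 groups enters each of them. The likeness in shape did not extend to size for all of them, since *Selenom*, *Rpl36al*, *Rps3* and *Ddx50* differed between the groups by 0.65, 0.90, 0.26 and 0.46 log2 units. Among the *Mup* probes, r with *Mup2* over 7 arrays was 0.96 for probe 7050706, 0.812 for *Mup5* probe 1820241, 0.78 for *Mup20* and 0.689 for *Mup21*. It was -0.157 and 0.286 for *Mup5* probes 1710541 and 460711.

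**Figure D4:**
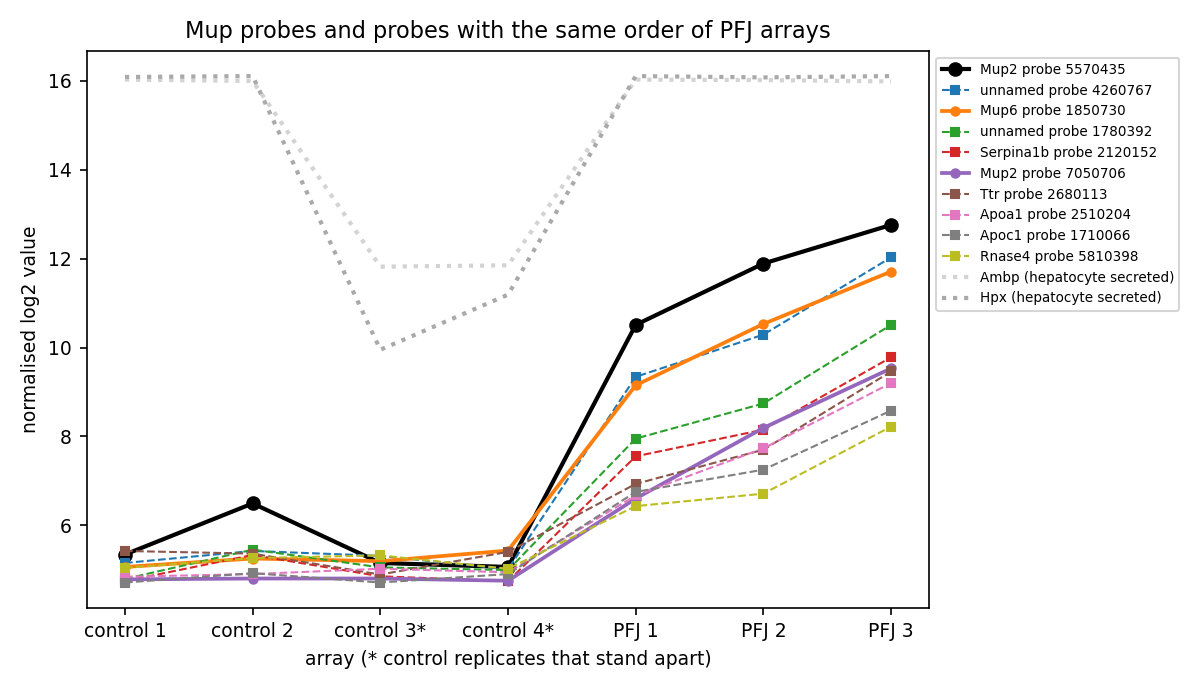
Normalised log2 values on the 7 arrays for both *Mup2* probes, *Mup6* and the other probes detected with PFJ alone that had the same order of PFJ arrays, with *Ambp* and *Hpx* as dotted lines for secreted hepatocyte genes detected on all arrays. The *Mup* lines and their companions lie at 4.71 to 6.49 on the control arrays and fan out on PFJ replicates 1, 2 and 3, whereas *Ambp* and *Hpx* dip on the starred control replicates 3 and 4 and lie near 16 on the others.

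Of the 42 probes of the secreted hepatocyte list, 26, 27 and 31 were detected on PFJ replicates 1, 2 and 3. On control replicates 1 to 4 the counts were 21, 22, 13 and 13. Probes of *Apoa1*, *Ttr* and *Serpina1b*, picked above for detection with PFJ alone, are among the 42, so these counts in part repeat that choice. Over all probes, 4867, 4887 and 4689 were detected on PFJ replicates 1, 2 and 3. The median of the 19 tested genes of the list was 14.46, 14.14 and 13.79 on the PFJ arrays, falling from replicate 1 to 3. Of the 19 genes, 19 had a positive difference on 7 arrays, whereas 10 were positive and 9 negative without control replicates 3 and 4. Of all tested genes, 1953 of 3734 were positive on 7 arrays and 1677 of 3543 without those 2. The p-values of the 19 genes are not counted, because *Apoa1*, *Ttr* and *Serpina1b* were picked above on the same contrast. The counts of signs and the medians include these genes and so in part repeat that choice. Without control replicates 3 and 4 the differences of these genes were 2.87, 2.52 and 1.59. The median log2 difference of the 19 genes was 2.94 on 7 arrays and 0 without those 2 arrays, where that of all tested genes was 0.03 and -0.01. Of 16 probes for salivary and lacrimal gland genes, other sites of *Mup* expression in mouse, 1 was detected on PFJ replicate 2 and none on the other arrays. In the lists for kidney, macrophages and red blood cells the lowest p-values belonged to *Aqp1*, *C1qc* and *Hbb-bt*. The water channel gene *Aqp1* had a log2 difference of -1.64 (standard error 0.87), the complement gene *C1qc* 1.01 (standard error 0.74) and the globin gene *Hbb-bt* 1.10 (standard error 0.34). Each had an adjusted p of 0.561 or above from limma, and only *Hbb-bt* had an unadjusted p below 0.05 (0.0144, limma). Without control replicates 3 and 4 these differences were -0.16 (standard error 0.20), -0.24 (standard error 0.19) and 0.73 (standard error 0.31). The other red blood cell genes tested were *Alas2* and *Slc4a1*. *Alas2* had 1.87 (standard error 1.11) on 7 arrays and 0.00 (standard error 0.35) without those 2, and *Slc4a1* had -1.55 (standard error 1.26) on 7 arrays. The part of these differences in the *Mup* signal was not tested.

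Genes of growth hormone signalling, through which pulses of the hormone drive *Mup* transcription in male mouse liver, showed no change that passed a test. Of 21 genes listed, 7 were tested, of which 4 had a positive and 3 a negative difference and 0 had an unadjusted p below 0.05 by limma (0 at an adjusted p). Of all 3734 tested genes, 1953 had a positive difference and 178 an unadjusted limma p below 0.05, so 0 of 7 says little. *Ghr*, the growth hormone receptor, had the lowest p of the list, with log2 values of 11.66, 11.52, 9.87 and 9.74 on control replicates 1 to 4 and 11.53, 11.97 and 11.16 on the PFJ arrays. Its difference was 0.86 (standard error 0.56, adjusted p = 0.561 from limma) on 7 arrays and -0.03 (standard error 0.28) without control replicates 3 and 4. *Igf1*, the main hepatic target of the hormone, had differences of 1.70 (standard error 1.28) and -0.30 (standard error 0.27). Both genes were lowest on control replicates 3 and 4, and on the other 5 arrays the diets overlapped.

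Hormone receptors and liver transcription factors behaved likewise. All 9 tested genes of the 18 listed had a positive difference on 7 arrays, with a median of 1.10, against 1953 of all 3734 tested genes. An unadjusted p below 0.05 by limma was found for 0 of the 9 and for 178 of all genes. Without control replicates 3 and 4, 3 were positive and 6 negative, with a median of -0.04, against 1677 positive of all 3543 genes. *Nr1i3*, which encodes the xenobiotic receptor CAR, had the lowest p, with a difference of 1.10 (standard error 0.49, adjusted p = 0.561 from limma) on 7 arrays and 0.54 (standard error 0.29) on 5. *Cebpa*, an activator of many hepatocyte genes, had 1.71 (standard error 0.86) and 0.31 (standard error 0.35), and *Hnf4a*, a master regulator of the hepatocyte, 0.40 (standard error 0.25) and 0.17 (standard error 0.24).

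Genes whose level in mouse liver differs by sex, as that of the *Mup* genes does, mostly failed the detection filter. Of 12 male-biased genes, 2 were tested, *C6*, a complement component, with a difference of 0.62 (standard error 0.33), and *Gstp1*, a glutathione transferase, with -1.71 (standard error 0.93). Of 13 female-biased genes, 2 were tested, the cytochromes P450 *Cyp2b9* and *Cyp2b13*, with 1.08 (standard error 0.55) and 2.72 (standard error 1.58). None of the 4 had an unadjusted p below 0.05 by limma on 7 arrays, against 178 of all 3734 tested genes. Without control replicates 3 and 4 the medians of the 2 lists were 0.08 and 0.16.

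Other lipocalins, the wider protein family of the MUPs, were not limited to the PFJ arrays, and each one tested was detected on at least 3 of the 4 control arrays. Of 23 genes listed, 17 had a probe and 5 were tested, all with a positive difference on 7 arrays (median 2.09), against 1953 of all 3734 tested genes. An unadjusted p below 0.05 by limma was found for 0 of the 5 and for 178 of all genes. Without control replicates 3 and 4, 2 were positive and 3 negative, with a median of -0.11, against 1677 positive of all 3543 genes. *Ambp*, the precursor of α1-microglobulin and bikunin, had log2 values of 16.03, 16, 11.82 and 11.85 on control replicates 1 to 4 and 16.03, 16.02 and 15.99 on the PFJ arrays, a difference of 0.00 (standard error 0.18) without those 2 arrays. *Orm1*, an acute-phase glycoprotein, had -0.11 (standard error 0.21). *Orm2* had log2 values of 14.40, 13.80 and 11.86 on PFJ replicates 1, 2 and 3, the reverse of the order of the *Mup* probes. It had 13.16 and 14.19 on control replicates 1 and 2, and a difference of -0.33 (standard error 0.79) without control replicates 3 and 4. *Lcn2*, an iron-siderophore binding protein of the acute phase, had 9.60, 10.70, 6.30 and 7.83 on control replicates 1 to 4 and 9.14, 8.82 and 8.39 on PFJ replicates 1, 2 and 3. Its difference was 0.18 (standard error 0.99) on 7 arrays and -1.39 (standard error 0.40, unadjusted p = 0.0123, adjusted p = 0.999 from limma) on 5. *Rbp4*, the plasma retinol carrier and partner of transthyretin, was detected on no array, with log2 values of 4.95 to 5.12 on the control arrays and 5.02, 5.79 and 6.20 on PFJ replicates 1, 2 and 3.

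**Figure D5:**
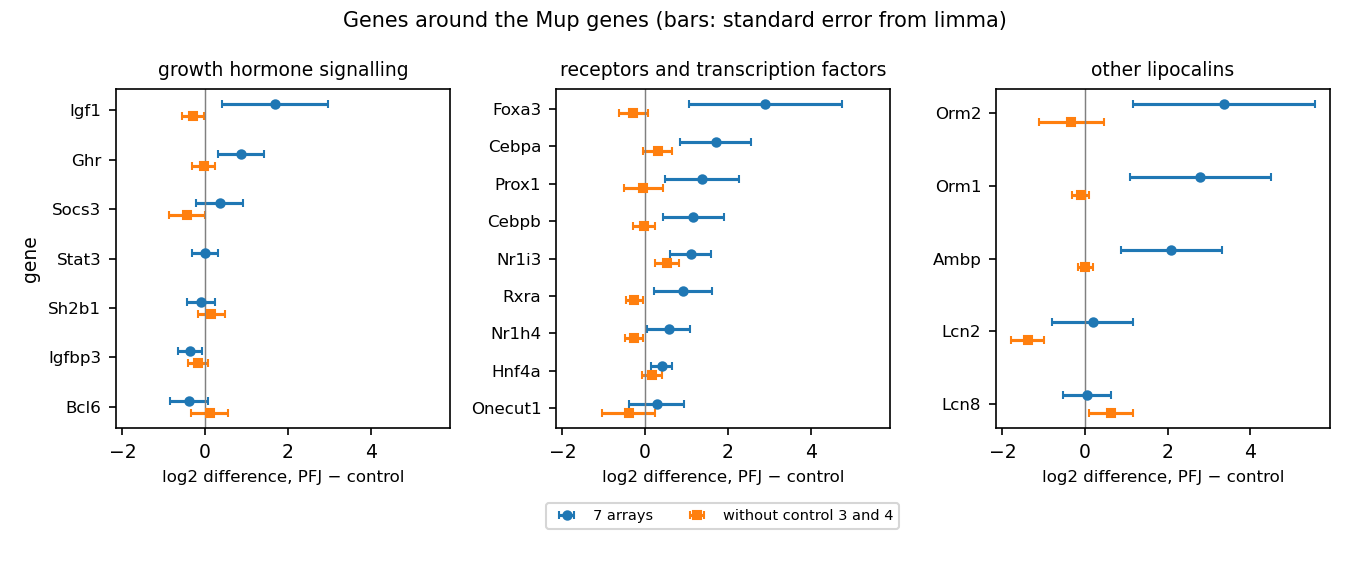
Log2 difference between the PFJ and control groups (horizontal axis, bars for the standard error from limma) for the tested genes of growth hormone signalling, hormone receptors and liver transcription factors, and other lipocalins, on all 7 arrays and without control replicates 3 and 4. Differences of up to 3.35 on 7 arrays lie near 0 on 5 arrays for most genes, *Lcn2* at -1.39 being an exception, and the *Stat3* probe has no value on 5 arrays because it was not the one used there.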

How the data were processed

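The authors hybridised biotin-labelled cRNA to the Illumina MouseRef-8 Version 2 BeadChip and exported the deposited table with GenomeStudio 2011.1, as the submitters' processing notes give it. It holds 1 raw intensity per probe and array, neither background-subtracted nor normalised. The deposited detection p-values were made by the authors' software from the negative controls of each array. A second deposited table holds the authors' background-subtracted, rank invariant normalised intensity values and was used as an alternative. Gene symbols came from the platform annotation, in which 23141 probes had 1 symbol, 0 had several and 2556 were not listed.

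Raw intensities were corrected and quantile normalised with neqc in limma 3.58.1 (R 4.3.3), with background estimated from the detection p-values and 16 added as offset before log2 was taken. Probes detected (p below 0.01) on at least 3 of 7 arrays were kept, and each gene took its kept probe with the highest mean, leaving 3734 genes. Groups were compared with lmFit and eBayes in limma and Benjamini-Hochberg adjustment, on code tested on simulated data. The Illumina Custom error model of the methods was not run. A fold written as at least N sets each array that did not detect a probe to the higher of its lowest detected value and the value of the probe. The number of arrays limits the precision. The *Mup* genes and the gene lists were chosen with earlier results of these data known. Named are all *Mup* probes, the probes detected with PFJ alone, the 10 genes most like *Mup2* and, in each list, the gene with the lowest p among others. Alternatives covered normalisation, background correction, offset, filter, single arrays left out, control replicates 3 and 4 left out, a replicate block, the authors' values and the methods' ratio of means with values below 10 set to 10.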

Additional observations from a re-analysis of the deposited data

Results flagged for a closer look

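Among the 25 probes described above whose 4 control values were compared with Dixon's criterion, 1 had a control array far from the other 3. The *Ttr* probe had a log2 value of 4.89 on control replicate 3, where the other control arrays lay at 5.36 to 5.42, and the gap took 0.884 of the range of the 4 values, more than the 95% limit of the criterion. The probe was not detected on any control array. Chance alone flags about 1 group in 20 by this criterion.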

How the results depend on the processing

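The differences of *Mup2* and *Mup6* between the groups kept their direction under every alternative run, which the choice of the family on these arrays had fixed. In size, these differences depended most on the treatment of background. Without background correction they were 4.39 and 3.33 log2 units in place of 6.21 and 5.23, and by the methods' ratio of group means they were 7.08 and 6.69. With single arrays left out they ranged from 5.73 to 6.81 for *Mup2* and from 4.66 to 5.89 for *Mup6*. Without both control replicates 3 and 4 they were 5.82 and 5.23. The other settings gave 5.40 (offset of 50) to 7.27 (the authors' values) for *Mup2* and 4.34 to 6.39 for *Mup6*.

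Genes past the adjusted threshold of limma numbered 2 in place of 0 when array medians were equalised, namely *Mup2* and *Mup6*, whose contrast had chosen them. That setting put the median log2 difference of all genes at -0.18, against 0.03, and split the unadjusted calls into 30 higher and 159 lower, where the authors' values gave 44 and 133. With single arrays left out the adjusted count ranged from 0 to 1 (*Mup2* without PFJ replicate 1, *Cops4* without PFJ replicate 2). The unadjusted count of 178 became 99 without both control replicates 3 and 4, 112 with probes detected on all 7 arrays and 801 with no filter, on 16110 genes. It ranged from 59 (without PFJ replicate 3) to 550 (without control replicate 1) with single arrays left out, with 486 without control replicate 2, 61 and 76 without control replicates 3 and 4, and 117 without PFJ replicate 1. With the replicate number as a block it was 65, and the *Mup2* and *Mup6* differences were 6.06 and 5.30. Deviations of same-numbered arrays from their group means correlated at 0.089, 0.216 and 0.126. The control means include replicates 3 and 4, which stood apart, so these values cannot decide whether the numbers pair the samples. No pairing was assumed. Apart from fewer genes or arrays in some settings, the cause of these shifts was not tested. Most probes lie near background, where poor binding of a NR transcript cannot be told apart from low expression.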
